A study of Mus musculus with 4 samples.

Results

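The genes described are 10 that build or limit vesicle traffic across endothelial cells: the caveolins Cav1 and Cav2, the cavins Cavin1, Cavin2 and Cavin3, the caveola-neck and membrane-bending genes Ehd2, Ehd4 and Pacsin2, the diaphragm gene Plvap, and the lipid transporter gene Mfsd2a. They were found by exact gene symbol, and all 10 were present once among the 54446 genes measured. RNA came from endothelial cells sorted by flow cytometry from retinas of C57BL/6 mice at postnatal day 16, with 100 cells in each library. Control mice gave 2 libraries, as did mice titled Zeb1-CKO, whose genotype field reads Zeb1 knockdown. Zeb1 encodes a zinc-finger repressor of transcription. The sources used here do not give the allele, what drives its deletion, or whether each library came from its own animal, so p-values measure the spread between these libraries, which may be technical. The comparison asks how expression in retinal endothelium differs when Zeb1 is targeted.

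Caveolae are flask-shaped pits of the plasma membrane that are abundant in most endothelium. Caveolins insert in the membrane, cavins coat it from the cytoplasm, EHD proteins hold the neck and pacsins bend the membrane, while PLVAP forms the thin diaphragm across the opening of caveolae and fenestrae. In the vessels of brain and retina, which form a barrier, transcytosis is kept low: MFSD2A carries lysophospholipids into the cell and is known to limit the formation of caveolar vesicles, Plvap is shut off as the barrier matures, and norrin and Wnt signalling is known to favour this state.

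Values are FPKM, fragments scaled to transcript length and to the library total, so levels of different genes can be compared per length. Library sums ranged from 283814 to 294276 FPKM. Steps between low values put control 2 at 0.510 of the depth of the deepest library, Zeb1-CKO 1, if a step stands for the same unit in both. Zeb1 itself was at 10.7 and 11.1 FPKM in control libraries against 8.66 and 7.07 FPKM in Zeb1-CKO libraries; both were lower, but the difference did not pass limma's threshold (adjusted p = 0.235). The value of a gene cannot separate a deleted part from the rest of its transcript. All 12 pan-endothelial markers listed were present in every library, with Cldn5 at 2692 to 3500.4 FPKM and Esam at 308 to 339 FPKM.

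Of the 10 genes, Cav1 and Ehd4 rose in Zeb1-CKO cells, none fell and 8 did not pass the test. Cav1 reached 2.72 times its control mean and Ehd4 2.17 times. Plvap was lower in each Zeb1-CKO library than in either control without passing, and the means of Mfsd2a and Cavin3 were each at 1.02 times those of the controls. The test was limma on log2(FPKM + 1) over 13651 genes whose mean reached 1 FPKM, all 10 among them, with Benjamini-Hochberg adjusted p under 0.05. By that rule 2.23% of all fitted genes were higher and 0.901% lower. At an unadjusted p under 0.05, 3 of the 10 were higher and 1 was lower, against 10.5% and 7.35% of all fitted genes and 17.9% in either direction. The FPKM ranges of the genotypes were apart for 6 of the 10: 5 were higher in Zeb1-CKO, against 27.1% of all fitted genes, and 1 was lower, against 22.3%. The median log2 difference was 0.16 over the 10 genes and 0.02 over all fitted genes. In RNA from sorted pools, fewer cells of a type and less RNA per cell cannot be told apart.

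**Figure D1:**
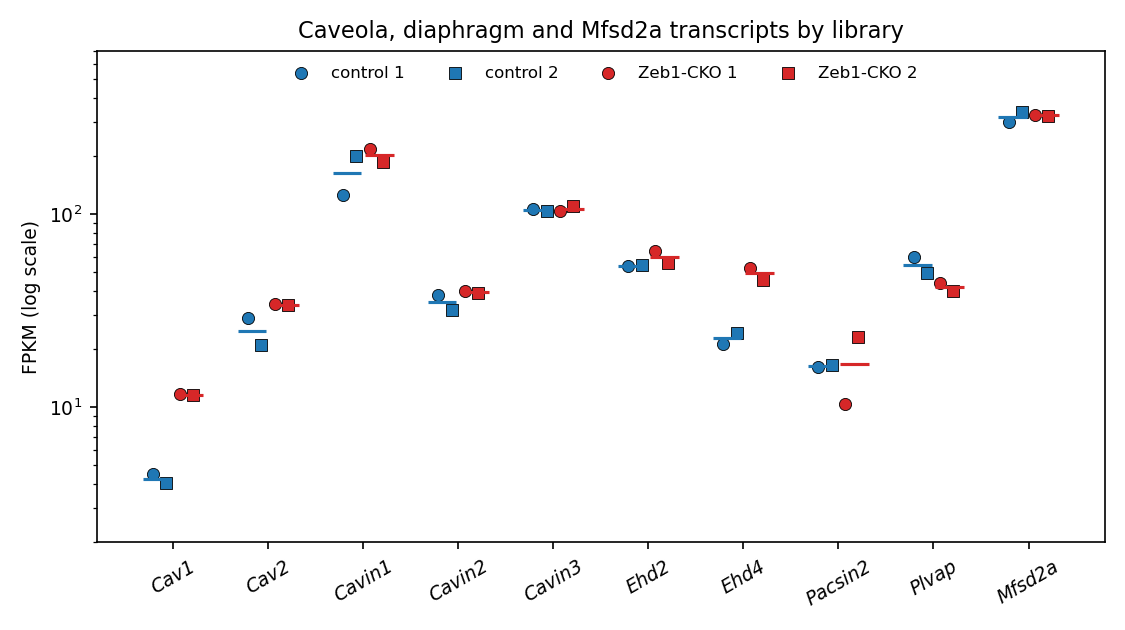
FPKM on a log scale for the 10 genes in each library; circles and squares are replicates 1 and 2, blue is control, red is Zeb1-CKO, and bars are the means of 2 libraries. Cav1 and Ehd4 stand clearly apart between genotypes, while the 4 Cavin3 values lie between 103 and 110.2 FPKM.

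Cav1 encodes caveolin-1, the membrane protein needed to form caveolae in endothelium, and lies on chromosome 6, 17306335 to 17341452 on the plus strand (mm10, GENCODE M21). It was at 4.50 and 4.04 FPKM in control libraries against 11.7 and 11.6 FPKM in Zeb1-CKO libraries. The genotypes were far apart and the 2 Zeb1-CKO values nearly equal, with means of 4.27 ± 0.325 and 11.6 ± 0.0217 FPKM (SD, n = 2 each). The log2 difference was 1.26 (SE 0.14, 95% interval 0.91 to 1.61), with limma's adjusted p at 0.0149. Without Zeb1-CKO replicate 1 the adjusted p was 0.1155, and without replicate 2 it was 0.121, at log2 differences of 1.26 in each. Among fitted genes of the same library, Cav1 stood at percentiles 44.6 and 41.2 in the controls and 71.5 and 70.1 in Zeb1-CKO. GENCODE M21 lists 10 Cav1 transcripts of 323 to 2746 bases, and a value per gene does not show which of them changed.

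Cav2 encodes caveolin-2, which forms hetero-oligomers with caveolin-1. It lies on the same strand just upstream, 17281185 to 17289115, and 17219 bases separate its end from the start of Cav1. Its values were 28.9 and 20.9 FPKM in the controls and 34.3 and 33.7 FPKM in Zeb1-CKO. The Zeb1-CKO libraries were both higher than the controls, but the control values themselves differed widely. The log2 difference of 0.45 (SE 0.18, 95% interval 0.002 to 0.90) did not pass, with limma's adjusted p at 0.277. It was 0.68 without control replicate 1 and 0.23 without control replicate 2.

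The region upstream of the start sites is shown for Cav1 and Ehd4, which rose, and for Mfsd2a, whose mean hardly differed, because ZEB1 is known to bind E-boxes and the promoters can be searched for its motif. The motif searched was CAGGTG on both strands (CACCTG on the other), and capitals mark it. Each sequence holds the 250 bases before a RefSeq start site (build GRCm38.p6, the assembly of mm10), 5′ to 3′ on the strand of the gene. Cav1 has 2 RefSeq starts, the downstream one 1305 bases after that of the expression table.
Cav1, upstream start, chr6:17306085-17306334, plus strand: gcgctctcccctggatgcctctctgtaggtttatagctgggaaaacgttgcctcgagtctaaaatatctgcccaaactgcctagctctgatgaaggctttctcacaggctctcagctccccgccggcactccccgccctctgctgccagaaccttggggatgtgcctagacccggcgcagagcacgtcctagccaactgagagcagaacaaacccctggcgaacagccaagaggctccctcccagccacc
Cav1, downstream start, chr6:17307390-17307639, plus strand: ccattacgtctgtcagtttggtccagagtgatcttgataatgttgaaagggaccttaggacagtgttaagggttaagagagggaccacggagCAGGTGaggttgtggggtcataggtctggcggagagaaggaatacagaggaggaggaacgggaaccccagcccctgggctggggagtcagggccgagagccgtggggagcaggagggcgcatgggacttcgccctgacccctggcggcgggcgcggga
Ehd4, chr2:120154576-120154825, minus strand: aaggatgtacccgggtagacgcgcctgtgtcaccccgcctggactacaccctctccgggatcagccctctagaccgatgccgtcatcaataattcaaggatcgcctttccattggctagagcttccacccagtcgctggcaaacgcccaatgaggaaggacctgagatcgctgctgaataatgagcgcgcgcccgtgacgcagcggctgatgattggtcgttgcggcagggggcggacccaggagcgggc
Mfsd2a, chr4:122961189-122961438, minus strand: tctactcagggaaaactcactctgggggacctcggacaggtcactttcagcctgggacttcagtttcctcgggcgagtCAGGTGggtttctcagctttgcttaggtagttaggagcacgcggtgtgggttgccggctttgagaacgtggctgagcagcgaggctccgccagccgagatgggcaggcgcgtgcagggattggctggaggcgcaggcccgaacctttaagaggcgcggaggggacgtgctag
The motif begins 158 bases before the downstream Cav1 start and 172 bases before the Mfsd2a start, and these letters are not in the upstream Cav1 window or in that of Ehd4. In windows of 300 bases, which add 50 bases after the start, 3 of 12 windows of 8 genes of the set held it, the other one being a window of Pacsin2, where it lies after the start. Of all 32851 promoter windows of that length, 20.2% did. A match is a description of letters and shows no binding. Windows were matched by symbol for Cav1, Cav2, Cavin1, Cavin2, Ehd2, Ehd4, Pacsin2 and Mfsd2a, and not for Cavin3 and Plvap.

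None of the 3 cavins passed the test. Cavin1, the coat protein required for caveolae together with caveolin-1 (chromosome 11, 100956733 to 100970887, minus strand), was at 126 and 199 FPKM in control libraries against 218 and 186 FPKM in Zeb1-CKO. The genotypes overlapped, since control 2 was higher than Zeb1-CKO 2. The log2 difference of 0.35 had a 95% interval of -0.25 to 0.94, and limma's adjusted p was 0.514. It was 0.02 without control replicate 1 and 0.67 without control replicate 2, so its size rests on which control is used.

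Cavin2, a serum-deprivation-response coat protein (chromosome 1, 51289126 to 51302960, plus strand), was at 38.3 and 31.9 FPKM in control libraries against 39.8 and 39.2 FPKM in Zeb1-CKO. The ranges did not meet, but the log2 difference of 0.17 (95% interval -0.19 to 0.53) did not pass, with limma's adjusted p at 0.599. It was 0.30 without control replicate 1 and 0.04 without control replicate 2. Cavin3, a coat protein that binds protein kinase C delta (chromosome 7, 105480083 to 105482300, minus strand), was at 106 and 103 FPKM in control libraries against 103 and 110.2 FPKM in Zeb1-CKO. These values overlapped, with a log2 difference of 0.03 (95% interval -0.29 to 0.34; limma's adjusted p = 0.936). Its sign turned negative under scaling by median ratios or by endothelial markers. Cavin3 shares 374 of its 1662 exon bases with Gm45667 on the opposite strand, which the libraries do not separate, and Gm45667 was at 0.144 to 0.734 FPKM.

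Among the genes of the caveolar neck, Ehd4 passed the test and Ehd2 did not, and the difference between these 2 genes was not tested. Ehd4 encodes an ATPase of the EHD family that shapes endosomal and caveolar membranes (chromosome 2, 120089175 to 120154606, minus strand). It was at 21.2 and 24.3 FPKM in control libraries against 52.8 and 45.8 FPKM in Zeb1-CKO. Both Zeb1-CKO libraries were far above both controls, with means of 22.7 ± 2.18 and 49.3 ± 4.91 FPKM (SD, n = 2 each). The log2 difference was 1.08 (SE 0.15, 95% interval 0.72 to 1.45), with limma's adjusted p at 0.0242. The call ended without control replicate 1 (adjusted p = 0.0718), without Zeb1-CKO replicate 1 (0.1403) and without Zeb1-CKO replicate 2 (0.114), where limma gave log2 differences of 0.99, 0.98 and 1.18.

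Ehd2, the EHD ATPase that sits at the caveolar neck and holds it at the membrane (chromosome 7, 15946958 to 15967567, minus strand), was at 53.7 and 54.5 FPKM in control libraries against 64.3 and 55.7 FPKM in Zeb1-CKO. Zeb1-CKO 2 lay just above the controls. Its log2 difference of 0.14 (95% interval -0.20 to 0.48) did not pass, with limma's adjusted p at 0.644. It was 0.04 without Zeb1-CKO replicate 1 and 0.25 without Zeb1-CKO replicate 2. Pacsin2, an F-BAR protein that bends the caveolar membrane (chromosome 15, 83375607 to 83464606, minus strand), was at 16.1 and 16.5 FPKM in control libraries against 10.4 and 23.2 FPKM in Zeb1-CKO. The 2 Zeb1-CKO libraries lay on opposite sides of the controls, so no direction can be given. Its log2 difference was -0.06 (95% interval -0.91 to 0.79; limma's adjusted p = 0.948), the widest interval of the 10 genes. Without Zeb1-CKO replicate 1 it was 0.48, and without Zeb1-CKO replicate 2 it was -0.60.

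Plvap encodes a structural protein of the caveolar and fenestral diaphragm and marks leaky endothelium (chromosome 8, 71497765 to 71511752, minus strand). It was at 59.7 and 49.7 FPKM in control libraries against 43.7 and 40.1 FPKM in Zeb1-CKO. The ranges were apart, Zeb1-CKO the lower, with means of 54.7 ± 7.02 and 41.9 ± 2.54 FPKM (SD, n = 2 each). The log2 difference of -0.37 (SE 0.15, 95% interval -0.74 to -0.003) did not pass, with limma's adjusted p at 0.276. It was negative in every fit without 1 library, from -0.50 to -0.24. Among fitted genes of the same library, Plvap stood at percentiles 94.7 and 93.5 in the controls and 92.3 and 91.0 in Zeb1-CKO.

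Mfsd2a, the barrier lipid transporter (chromosome 4, 122946850 to 122961188, minus strand), was the most abundant of the 10 genes. It was at 299 and 339 FPKM in control libraries against 327 and 322 FPKM in Zeb1-CKO, above the 99th percentile of fitted genes in each library. Both Zeb1-CKO values lay between the controls. The log2 difference was 0.03 (95% interval -0.31 to 0.36; limma's adjusted p = 0.936), so changes beyond 0.36 in either direction lay outside the interval. Its sign turned negative under scaling by median ratios or by endothelial markers.

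**Figure D2:**
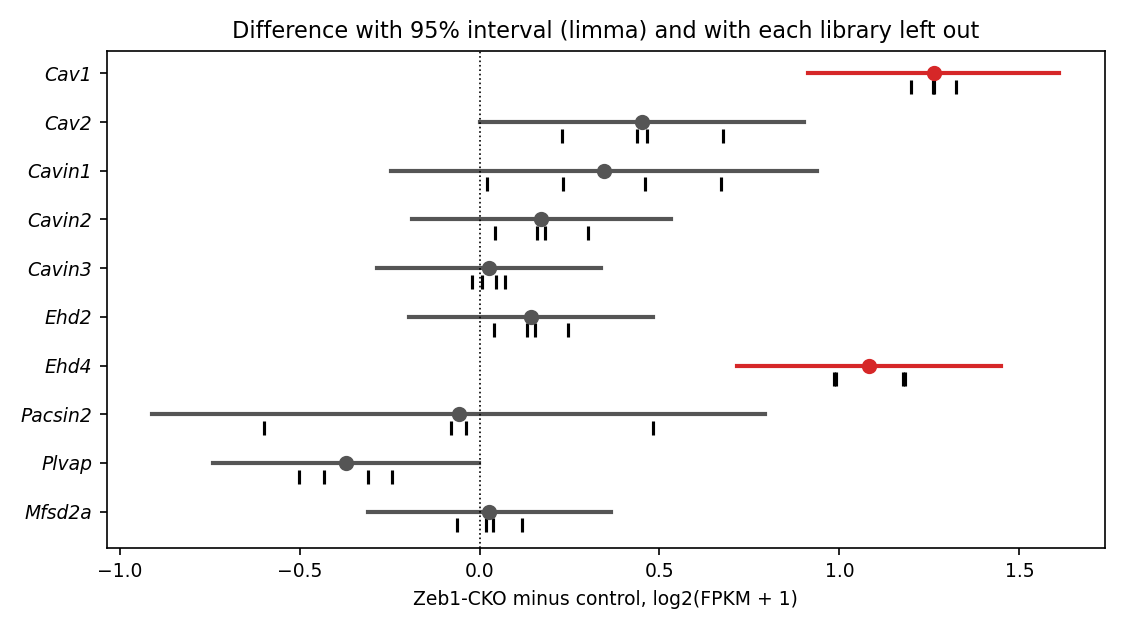
Zeb1-CKO minus control on the log2(FPKM + 1) scale for each gene: dots are limma's estimates, bars their 95% intervals, red marks adjusted p under 0.05, and ticks are the estimates with each library left out. Cav1 and Ehd4 lie near 1.26 and 1.08, and the ticks of Pacsin2 spread from -0.60 to 0.48.

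By level, the order in controls was Mfsd2a, Cavin1, Cavin3, Plvap, Ehd2, Cavin2, Cav2, Ehd4, Pacsin2 and Cav1, from 319 to 4.27 FPKM. Plvap and Ehd2 overlapped there, as did Cav2 and Ehd4, and the other neighbours did not. In Zeb1-CKO the order was Mfsd2a, Cavin1, Cavin3, Ehd2, Ehd4, Plvap, Cavin2, Cav2, Pacsin2 and Cav1, from 325 to 11.6 FPKM, and Pacsin2 and Cav1 overlapped. Ehd4 thus moved from below Plvap and Cavin2 to above them. Cav1 was the lowest of the set in both genotypes by mean, below Cav2, and summed cavins were at 7.41 to 13.4 times summed caveolins in the 4 libraries.

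Ratios within a library do not depend on how libraries are scaled. Cav2 was at 6.41 and 5.17 times Cav1 in the controls and at 2.95 and 2.90 times in Zeb1-CKO, a difference of -0.98 in log2 ratio. Cavin3 was at 23.6 and 25.6 times Cav1 in the controls and at 8.87 and 9.49 times in Zeb1-CKO, a difference of -1.42. Each of 6 caveolar genes set against Cav1 (Cav2, Cavin1, Cavin2, Cavin3, Ehd2 and Pacsin2) had a lower ratio in both Zeb1-CKO libraries than in either control. All 6 share Cav1, itself called higher, as their denominator and are not independent. A gene that rose less than Cav1 gets a lower ratio, so these 6 largely restate the difference in Cav1. The share of all fitted genes with a lower ratio over Cav1 was not computed. Mfsd2a was at 5.01 and 6.82 times Plvap in the controls and at 7.48 and 8.03 times in Zeb1-CKO, higher in both by a mean log2 ratio of 0.41. Against the geometric mean of the 12 pan-endothelial markers, Cav1 was higher by 1.36 and Ehd4 by 1.03 in log2 ratio, Plvap was lower by 0.47, with log2 ratios of -1.10 and -1.44 for control against -1.67 and -1.81 for Zeb1-CKO, and Mfsd2a differed by -0.06. These ratios are given as values with no test. An exact permutation test was not run, since with 2 against 2 libraries its two-sided p cannot go below 0.333.

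**Figure D3:**
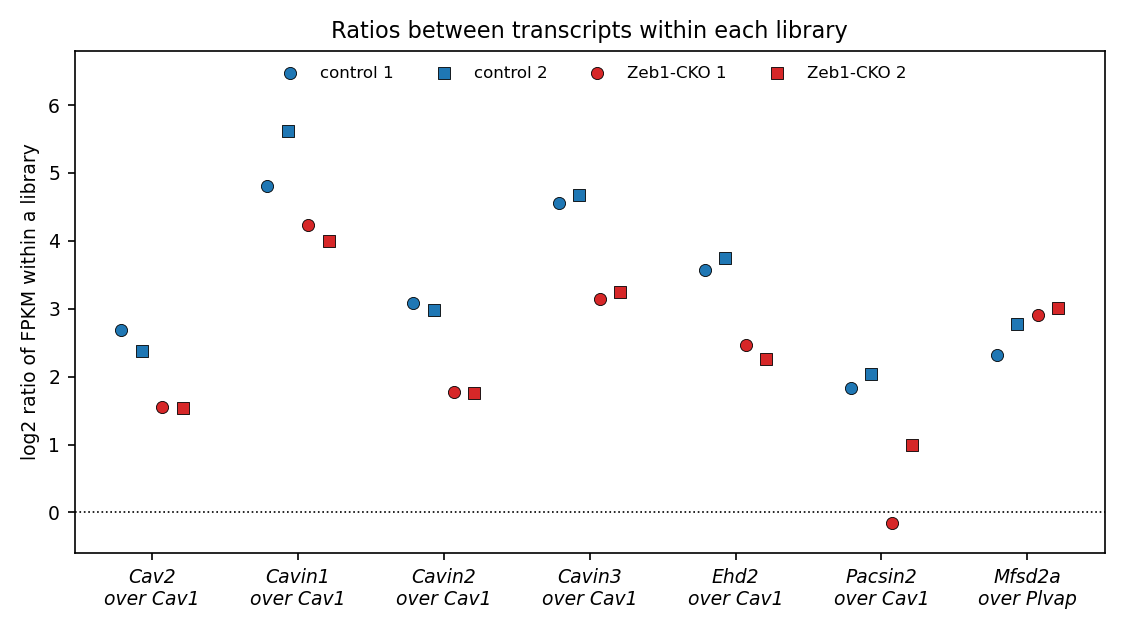
log2 ratio of FPKM between 2 genes within each library; circles and squares are replicates 1 and 2, blue is control and red is Zeb1-CKO. For every ratio over Cav1 both red points lie below both blue points, and for Mfsd2a over Plvap they lie above. The ratios over Cav1 share as denominator a gene that was itself called higher.

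The rest of the pathway was read from 8 lists of 100 genes, of which 92 were fitted. Of these 1 rose, 4 fell and 87 did not pass, against 2.23% of all fitted genes called higher and 0.901% called lower. The median log2 difference was -0.09, against 0.02 over all fitted genes. Counts at an unadjusted p under 0.05 in these lists stand against 17.9% of all fitted genes. The other members of the caveolin, cavin, EHD and pacsin families had positive differences where they could be fitted, with a median of 0.24: no call was made by limma among 3 fitted genes, of which 1 had an unadjusted p under 0.05, with Ehd1 at 23.7 and 26.9 FPKM in the controls and 31.0 and 29.1 FPKM in Zeb1-CKO. Ehd3 was at 4.37 and 3.79 FPKM against 5.94 and 6.32 FPKM, higher in both Zeb1-CKO libraries by 0.49 on the log2 scale without passing (limma's adjusted p = 0.176). Cav3, the muscle caveolin, was at 0.0421 FPKM in control 1 and listed at 0 in the other 3 libraries, and the muscle cavin Cavin4 stayed below 0.47 FPKM.

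Of 9 fitted genes for residents of caveolae and lipid rafts, 1 rose and 8 did not pass. Gpihbp1, whose protein carries lipoprotein lipase across capillary endothelium, rose from 13.7 and 12.6 FPKM to 77.4 and 102 FPKM. It was the largest difference among the 92 genes, 2.67 on the log2 scale (SE 0.17; limma's adjusted p = 0.00267), and the call held with each of the 4 libraries left out in turn. Nos3, the endothelial nitric oxide synthase that binds caveolin-1, was at 65.2 and 78.5 FPKM in control libraries against 62.0 and 62.1 FPKM in Zeb1-CKO (limma's adjusted p = 0.533); it was picked for its role after its values were seen.

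Receptors that ferry cargo across endothelium had 1 gene that fell among 12 fitted, none that rose and a median log2 difference of -0.47. Fcgrt, the neonatal Fc receptor that binds IgG and albumin, fell from 87.0 and 85.4 FPKM to 43.4 and 51.3 FPKM, a log2 difference of -0.85 (SE 0.14; limma's adjusted p = 0.0410). The call ended with each of the 4 libraries left out in turn, at log2 differences of -0.97 to -0.74. The transferrin receptor gene Tfrc, at 51.9 and 54.4 FPKM against 30.6 and 22.1 FPKM, and the basigin gene Bsg, at 1817 and 1556 FPKM against 856 and 967 FPKM, missed the threshold (limma's adjusted p of 0.0534 and 0.0510); both were picked after their values were seen. In this list 9 of 12 differences were negative and 6 had an unadjusted p under 0.05, against 17.9% of all fitted genes.

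The clathrin route and the fusion machinery gave no calls. None of 18 fitted genes of clathrin, its adaptors and dynamins passed limma's threshold, 1 had an unadjusted p under 0.05 and the median was -0.10. The adaptor subunits Ap2s1 and Ap2m1 were at 89.98 and 78.5 FPKM and 58.6 and 45.9 FPKM in control libraries, and at 69.5 and 85.8 FPKM and 60.3 and 58.0 FPKM in Zeb1-CKO. None of 16 genes of vesicle docking, fusion and sorting passed either, with 1 at an unadjusted p under 0.05 and a median of 0.17. The late endosome GTPase gene Rab7 was at 131 and 127 FPKM in control libraries against 106 and 146 FPKM in Zeb1-CKO, and the vesicle SNARE gene Vamp3 was at 85.3 and 85.7 FPKM against 95.2 and 96.1 FPKM.

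In the list for Wnt and norrin signalling 16 genes were fitted. Of them 2, Nkd1 and Apcdd1, fell, against 0.901% of all fitted genes. The median was -0.16, against 0.02 over all fitted genes, and 12 of the 16 differences were negative. An unadjusted p under 0.05 was reached by 7, against 17.9% of all fitted genes. Nkd1, a feedback inhibitor induced by Wnt, was at 15.5 and 17.1 FPKM in control libraries against 2.83 and 3.51 FPKM in Zeb1-CKO (limma's adjusted p = 0.00382), and this call held with each library left out in turn. Apcdd1, a membrane inhibitor of Wnt signalling, was at 100.4 and 111 FPKM against 56.6 and 56.7 FPKM (limma's adjusted p = 0.0298), and its call ended with each library left out in turn, at log2 differences of -0.96 to -0.81. None of 6 genes for VEGF and its receptors passed or had an unadjusted p under 0.05, with Flt1 at 97.5 and 117 FPKM against 119 and 109.9 FPKM. Kdr was at 84.6 and 101 FPKM in control libraries against 103 and 95.4 FPKM in Zeb1-CKO.

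Of 12 barrier transporters and transcription factors, 1 fell, against 0.901% of all fitted genes, and 11 did not pass. Differences were negative for 11, and the median was -0.37, against 0.02 over all fitted genes. An unadjusted p under 0.05 was reached by 5 genes, against 17.9% of all fitted genes. The thyroid hormone transporter gene Slco1c1 fell; it was at 49.6 and 48.2 FPKM against 26.8 and 28.7 FPKM (limma's adjusted p = 0.0378), a call that ended with each library left out in turn, at log2 differences of -0.84 to -0.75. Mfsd2a, which is known to mark the same barrier state, differed by 0.03 on that scale without passing.

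**Figure D4:**
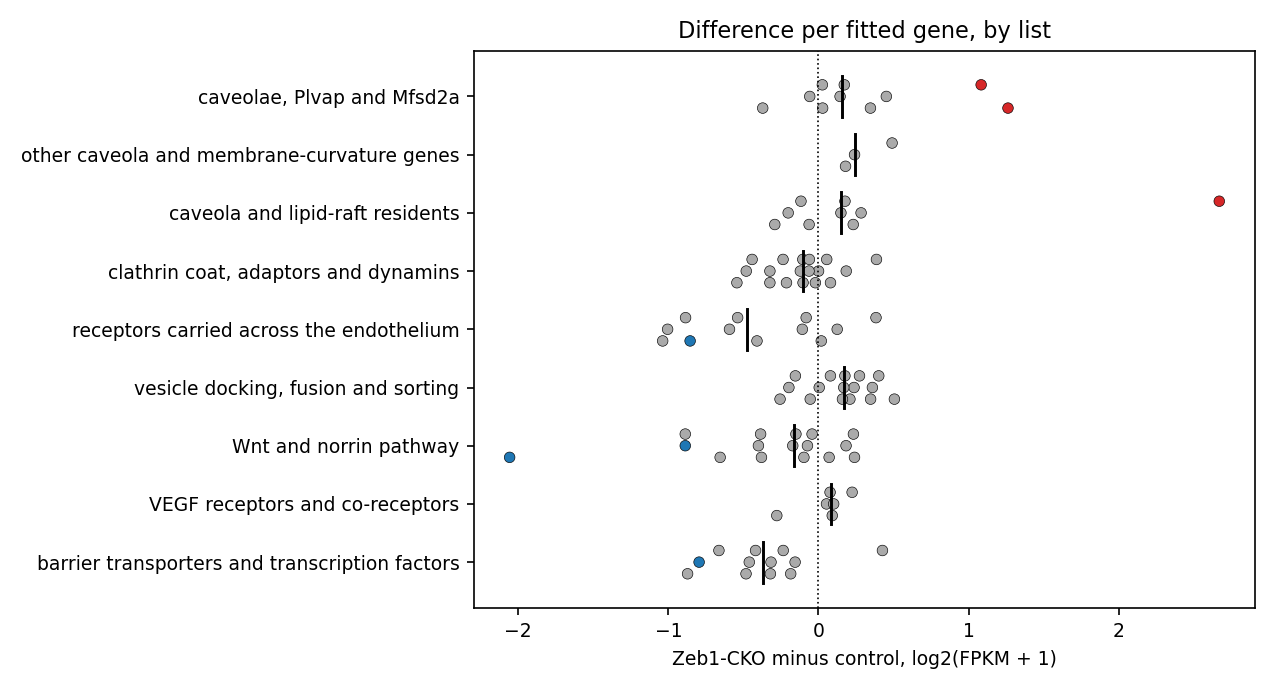
Zeb1-CKO minus control on the log2(FPKM + 1) scale for each fitted gene, by list; red and blue points passed limma's threshold as higher and lower, grey points did not, and black bars are list medians. Gpihbp1 lies farthest right at 2.67 and Nkd1 farthest left at -2.06.

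Caveolar genes are also expressed by pericytes, smooth muscle and fibroblasts, and caveolin-1 by Müller glia, so markers of these cells were read beside them. The counts at an unadjusted p under 0.05 that follow stand against 17.9% of all fitted genes, and a gene that fell against 0.901%. All 10 pericyte markers were fitted and all had negative differences, none passing limma's threshold and 4 at an unadjusted p under 0.05; they summed to 2493 and 2022 FPKM in the controls and 1725 and 1928 FPKM in Zeb1-CKO. The pericyte gene Rgs5 reached 1673 and 1348 FPKM in the controls and 1201 and 1262 FPKM in Zeb1-CKO, so pericyte RNA was abundant in all 4 libraries. Higd1b was at 204 and 151 FPKM against 108 and 186 FPKM. Smooth-muscle markers summed to 578 and 433 FPKM in the controls and 261 and 336 FPKM in Zeb1-CKO. All 6 fitted genes had negative differences and 5 an unadjusted p under 0.05; 1 of them, Tagln, fell, with 16.6 and 14.8 FPKM against 7.85 and 8.57 FPKM (limma's adjusted p = 0.0429), and its call ended with each library left out in turn. Plvap was lower in the same libraries as these mural markers, and Cav1 and Ehd4 were higher.

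Müller glia and astrocyte markers summed to 262 and 251 FPKM in the controls and 281 and 380 FPKM in Zeb1-CKO; 6 of 7 fitted genes had positive differences and none passed limma's threshold, with 4 at an unadjusted p under 0.05. In this list Gfap was at 56.7 and 60.65 FPKM against 68.2 and 137 FPKM, Dkk3 at 67.2 and 67.8 FPKM against 92.2 and 107 FPKM, while the glutamine synthetase gene Glul, the exception in sign, was at 71.9 and 64.8 FPKM against 44.9 and 45.3 FPKM (limma's adjusted p = 0.0837). The water channel gene Aqp4 was listed at 0 in both controls and at 0.0269 and 0.221 FPKM in Zeb1-CKO; Glul and Aqp4 were picked after their values were seen. Fibroblast markers summed to 52.4 to 59.4 FPKM, but this sum joins genes that differed in opposite directions. Of 4 fitted genes 2 had positive and 2 negative differences, none passed limma's threshold and 3 were at an unadjusted p under 0.05. Pdgfra was at 25.8 and 22.9 FPKM against 37.8 and 37.6 FPKM, and Col3a1 at 19.3 and 26.4 FPKM against 12.7 and 13.7 FPKM. Lum was listed at 0 in 3 libraries and Dcn was at 0.0701 FPKM or below. Whether the Pdgfra RNA came from fibroblasts was not tested. Microglial markers summed to 69.1 and 136 FPKM in the controls and 109.6 and 95.5 FPKM in Zeb1-CKO, with 7 of 8 fitted genes at negative differences, none passing limma's threshold and 5 at an unadjusted p under 0.05. In this list Lyz2 was at 9.27 and 18.3 FPKM against 14.1 and 1.48 FPKM. The part of these cells in the differences of the caveolar genes was not tested.

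Plvap is high in the fenestrated vessels of the choroid, which lie against the retinal pigment epithelium. Markers of that epithelium summed to 4.203 to 5.98 FPKM, the defining gene Rpe65 was at 0.0191 FPKM or below in every library, and Rdh5 and Best1 led the list at 2.36 to 4.36 and 1.07 to 1.48 FPKM. Since cells were sorted as endothelium, low values of epithelial markers cannot show whether choroidal endothelial cells were among them. Whether any Plvap RNA came from the choroid was not tested. All 3 fitted lymphatic endothelial markers had positive differences and none passed limma's threshold, 2 at an unadjusted p under 0.05, with Pdpn at 20.2 and 20.7 FPKM in the controls and 26.2 and 29.1 FPKM in Zeb1-CKO and Flt4 at 15.0 and 18.2 FPKM against 18.8 and 16.2 FPKM. Photoreceptor markers summed to 75.2 FPKM in control 1 and 9.80 FPKM in control 2, and to 40.8 and 48.0 FPKM in Zeb1-CKO, with Sag at 15.7 and 1.87 FPKM against 9.21 and 11.7 FPKM. By these sums the controls differed more from each other in photoreceptor RNA than they did from Zeb1-CKO, and both Zeb1-CKO sums lay between them. All 7 fitted photoreceptor markers had positive differences, with a median log2 difference of 0.55. None passed limma's threshold or had an unadjusted p under 0.05.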

How the data were processed

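RNA from 100 sorted cells per library was amplified with the SMART-Seq v4 kit and sequenced in pairs on a NextSeq 500, per the labels' protocols, a procedure that does not mark strand. The submitters' processing notes name Trimmomatic 0.36, HISAT2 2.1.0, StringTie 1.3.3 and build mm10, and give no settings here. The authors' deposited values are FPKM for each gene and library; the unit was inferred from StringTie and the column sums. FPKM divide by the library total, so large changes elsewhere can shift a gene.

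The 2 libraries per genotype were compared by limma 3.58.1 under R 4.3.3, on log2(FPKM + 1) with a trended variance, for 13651 genes that averaged 1 FPKM or more over the 4 libraries, with Benjamini-Hochberg adjustment at 0.05. The pseudocount understates changes of low genes. The scripts were tested on simulated data. Relative depth came from the ladder of low FPKM values: 24.9% to 31.1% of values lay within 0.02 of a whole step, against 4% at random. Whether a step is a read or a fragment is not known, nor whether it is the same in every library. For the longest Cav1 transcript 1 step is worth 0.00830 to 0.0163 FPKM, and the reads carry no molecular identifiers.

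Genes named outside the set are, per list, up to 3 that passed by smallest p, or else the 2 most abundant, with the 3 nearest patterns to Cav1, Plvap and Mfsd2a. The genes and lists were chosen with earlier results of these data known. BLAST 2.17.0 found no near-identical copy of any gene of the set (95% identity over 80% of a transcript, at least 200 bases).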

Additional observations from a re-analysis of the deposited data

How the results depend on the processing

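The alternatives were other pseudocounts, filters, scalings, variance models and thresholds, a replicate block and each library left out. Where 1 library is left out, the lone library of that genotype is assumed to vary like the others. Endothelial scaling used the plain sum of the 12 pan-endothelial markers, not the geometric mean used for the ratios. That sum was 4073 to 4985 FPKM, of which Cldn5 alone made up 2692 to 3500.4 FPKM, so this scaling rests mostly on Cldn5. Over 150 combinations of the 10 genes and an alternative other than the thresholds, 135 kept their direction and side of the threshold, 8 lost the call (3 for Cav1, 5 for Ehd4) and 7 changed sign. The count of genes of the set called higher was 2 with all libraries; it was 0 at adjusted p under 0.01 and 0 with no filter, where more genes are tested (limma's adjusted p of 0.0765 for Cav1 and 0.1244 for Ehd4), and 0 to 2 with a library left out, where fewer samples are tested. The count called lower was 0 in every alternative. Adjusted p by limma ranged from 0.0122 to 0.121 for Cav1 and from 0.0234 to 0.1403 for Ehd4. The related lists held 5 called genes, but 9 at adjusted p under 0.1, 2 at 0.01, 3 with a filter of 0.1 FPKM, 2 with no filter, 2 to 3 with a library left out and 2 without a trended variance, for which the cause was not tested. Signs changed for Cavin3 (-0.0204 to 0.0721 with a library left out, -0.0055 with median ratios, -0.0812 with endothelial scaling), Mfsd2a (-0.0626 to 0.1179, -0.0039 and -0.0799 in the same order) and Pacsin2 (-0.5975 to 0.4807 with a library left out); beyond the library left out or the scaling itself, the cause was not tested. With a library left out, the difference in log2 ratio ranged from -1.13 to -0.824 for Cav2 over Cav1 and from -0.629 to -0.185 for Plvap over Mfsd2a.

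The libraries share replicate numbers but no label says that a number pairs them, and same-numbered libraries deviated with r = -0.118 across genes. With the replicate block, 1 gene of the set was called higher (Cav1; limma's adjusted p for Ehd4 was 0.0819) and 2 in the related lists. With crossed numbers, chosen after seeing the data, 2 of the set and 7 of the related lists were called. Over all genes, 304 were higher and 123 lower; the counts were 155 and 38 with the block, 70 and 15 with no filter, 553 and 306 at adjusted p under 0.1, 84 and 20 at 0.01, and 44 to 224 and 15 to 59 with a library left out. A filter of 5 FPKM gave 169 higher, a filter of 0.1 FPKM gave 68 lower, and endothelial scaling gave 309 higher and 222 lower. Control 2 was the shallowest library if a step of the ladder stands for the same unit in each, and amplified reads overstate independent molecules.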

Other observations

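The genes whose 4 centred log2(FPKM + 1) values lay nearest to those of Cav1, by Euclidean distance over the 4 libraries among 11284 candidates, were B3galt5 (distance 0.0241), Sqle (0.0664) and Anxa4 (0.0706). B3galt5, a glycosyltransferase gene, was at 0.483 and 0.363 FPKM in control libraries against 2.35 and 2.37 FPKM in Zeb1-CKO. Sqle, the squalene epoxidase gene of cholesterol synthesis, was at 2.78 and 2.42 FPKM against 7.43 and 7.15 FPKM, and Anxa4, a calcium-dependent membrane-binding annexin gene, at 8.82 and 8.24 FPKM against 21.2 and 20.6 FPKM. All 3 passed limma's threshold, with adjusted p of 0.0376, 0.0196 and 0.0147; since they were picked for values like those of a called gene, this follows largely from the choice. The call of B3galt5 ended with each library left out in turn, that of Sqle without control replicate 2 or either Zeb1-CKO library, and that of Anxa4 without either Zeb1-CKO library. Nearest to Plvap were Glt8d1, Cfap300 and Rerg, at distances of 0.0438 to 0.0440, and nearest to Mfsd2a were Exoc7, Baz2a and Shb, at 0.0121 to 0.0189. A distance under 0.2 was shared by 24 candidates for Cav1, 362 for Plvap and 1530 for Mfsd2a, so the last 2 patterns are common ones.

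Within 500 kb of the Cav1 start, Tes was also called higher; it was singled out after its values were seen. Tes encodes testin, a LIM protein of focal adhesions, and starts 241186 bases upstream of Cav1. It was at 24.6 and 27.4 FPKM in control libraries against 49.6 and 44.97 FPKM in Zeb1-CKO, a log2 difference of 0.84 (SE 0.14; limma's adjusted p = 0.0407). The call ended with each library left out in turn, at log2 differences of 0.76 to 0.91. On the other side, Capza2 was at 53.3 and 40.2 FPKM against 52.5 and 52.3 FPKM (limma's adjusted p = 0.652). Met was below 1 FPKM in every library and was not fitted, at 0.527 and 0.597 FPKM in control libraries against 0.929 and 0.781 FPKM in Zeb1-CKO. Of the other genes in this window that were not fitted, D830026I12Rik was higher in both Zeb1-CKO libraries than in either control. Gm13899 and Gm43533 were lower in both.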
